A study of Mus musculus with 14 samples.

Results

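Among 14 single Tomato-positive cells from adult mouse bone, 3 cells, numbered 6, 10 and 13 in the labels, held the osteoblast gene Ifitm5 at 8.5 or more on the log2 scale and were set against the 11 other cells. Ifitm5 encodes a small membrane protein of bone-forming cells, also called BRIL, and it was at 11.72, 9.0 and 10.60 in cells 6, 10 and 13. The lowest value inside the threshold was the 9.0 of cell 10, and the highest outside it was 3.76 in cell 2, followed by 3.17 in cell 7. The remaining cells ranged down to 0.42, with a median of 1.84 over the 11. The cells were chosen by these measured Ifitm5 values, which are given as a description only.

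All 14 cells came from adult C57BL/6 mice of the genotype Prrx1-CreERT;Tomato, given tamoxifen at 2 mg per 30 g of body weight once a day for 3 days. In these mice a Cre recombinase that needs tamoxifen is driven by the Prrx1 promoter, active in limb mesenchyme, and its action switches on the red Tomato reporter, which daughter cells inherit. The cells were digested with collagenase out of flushed tibiae, radii and ulnae, sorted for red fluorescence and picked singly, and each was measured by RNA sequencing of the 3' ends of its transcripts. There was no second genotype, treatment or time, and the labels name no animal, and whether the cells stem from 1 animal or several is not known. With a single labelled group, conditions could not be tested against each other, and no p-value is given. A level below is a log2 quantile-normalized FPKM value (fragments per kilobase of transcript per unit of sequencing depth, brought to a common distribution in every cell), and a difference is the mean of the 3 cells minus the mean of the 11 others, in log2 units. Such levels give a gene's place in that common distribution and say nothing of the amount of RNA in the cell. They are compared between cells and not between genes.

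Osteoblasts make bone by secreting a dense matrix, mostly of type I collagen, and by then laying mineral into it. They arise from mesenchymal progenitors under the transcription factors Runx2 and Sp7 and, as they mature, add non-collagenous proteins such as bone sialoprotein (Ibsp), osteopontin (Spp1) and osteocalcin (the Bglap genes). Ifitm5 belongs to a family of interferon-inducible membrane proteins, but in bone it is known as a gene of the mineralizing osteoblast, and it is altered in a form of the brittle bone disease osteogenesis imperfecta.

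The promoters of Ifitm5 and of the osteoblast genes Ibsp and Bglap3, which were high in the same 3 cells, are shown here so that the bases before each start can be compared. Each is the 250 bases before a RefSeq start (GRCm38.p6), written 5′ to 3′ on the gene's own strand. Ifitm5 covers chr7:140950244-140950493 on the minus strand, Ibsp chr5:104299037-104299286 on the plus strand and Bglap3, by the most upstream of its 3 RefSeq starts, chr3:88372742-88372991 on the minus strand. Capitals mark TATAA or its reverse complement TTATA, and the letters GGGCGG or CCGCCC, the core bound by Sp-family factors.
Ifitm5: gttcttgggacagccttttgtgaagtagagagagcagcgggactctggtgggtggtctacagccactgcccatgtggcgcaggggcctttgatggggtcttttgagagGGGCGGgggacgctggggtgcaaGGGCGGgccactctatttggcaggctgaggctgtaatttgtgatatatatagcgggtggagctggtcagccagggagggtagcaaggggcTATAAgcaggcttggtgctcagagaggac
Ibsp: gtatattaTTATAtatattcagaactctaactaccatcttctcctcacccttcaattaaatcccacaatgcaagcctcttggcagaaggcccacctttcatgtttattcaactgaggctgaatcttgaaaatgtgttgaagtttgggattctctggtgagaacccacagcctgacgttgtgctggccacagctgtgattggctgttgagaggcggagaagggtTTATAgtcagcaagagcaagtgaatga
Bglap3: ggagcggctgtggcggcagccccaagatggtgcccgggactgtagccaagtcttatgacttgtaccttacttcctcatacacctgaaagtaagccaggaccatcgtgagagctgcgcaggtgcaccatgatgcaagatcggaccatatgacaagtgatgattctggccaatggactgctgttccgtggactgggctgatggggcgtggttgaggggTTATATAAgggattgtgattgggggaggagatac

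All 3 stretches held such a TATA-like run close to the start: TATAA began at position -29 in Ifitm5 and at -31 in Bglap3, and TTATA at -27 in Ibsp, counting back from the base before the start. In Bglap3 TTATA overlapped TATAA, and Ibsp held a second TTATA at -242. Over all genes above every other cell, Ifitm5 included, 36 of 45 had a RefSeq promoter and 11 of these 36 (30.6%) held TATAA on either strand, against 15.6% of the 7368 genes of the table with a promoter and 25.8% of the 27025 genes of the RefSeq table. The letters ACCACA or TGTGGT, the core bound by Runx factors, were in none of the 3 stretches shown. They were in 4 of the 36 (11.1%) against 12.7% of the table's genes and 15.9% of the RefSeq genes. GGGCGG or its reverse complement was in 27 of the 36 (75%) against 64.2% of the table's genes and 35.4% of the RefSeq genes. These matches are descriptions of letters in a window, not binding sites.

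The other markers given with the label of the cells are described first. They were chosen with earlier results of these cells known, so their levels are no independent check of the label. Ibsp, which encodes the bone sialoprotein that nucleates mineral, was at 7.25, 12.48 and 11.17 in cells 6, 10 and 13, while the 11 other cells lay between 1.35 and 5.73 with a median of 3.73. The groups did not overlap, and the difference was 6.89. Col1a2, one of the chains of type I collagen, was at 11.97, 12.56 and 14.58 in cells 6, 10 and 13 against 5.60 to 12.01 (median 8.56) in the others. It overlapped through cell 1 alone, whose 12.01 lay just above cell 6. Spp1 was at 7.76, 13.82 and 7.15 in cells 6, 10 and 13 against 1.49 to 7.98 (median 5.01), so that cell 10 alone stood clear of the rest.

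**Figure D1:**
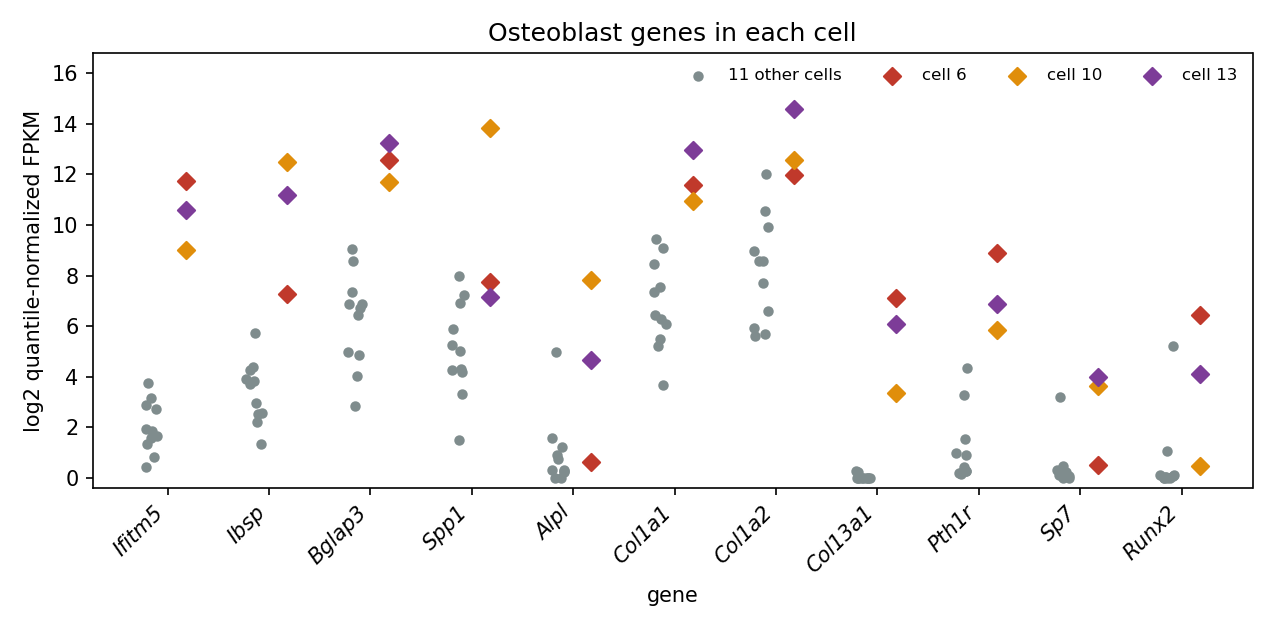
Log2 quantile-normalized FPKM of 11 osteoblast genes (x axis) in each of the 14 cells. Diamonds are cells 6, 10 and 13, which were chosen for Ifitm5, and grey points are the 11 other cells; Ibsp, Bglap3, Col1a1, Col13a1 and Pth1r show no overlap, while in Alpl and Sp7 cell 6, and in Runx2 cell 10, lies among the low values of the others.

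Across the table, 44 of the 9541 genes other than Ifitm5 (0.461%) had their lowest value in the 3 cells above the highest value in the 11 others. Another 14 genes (0.147%) had the reverse order. Of the 44, 25 (0.262% of all genes) were separated by 1 log2 unit or more and 19 by less, and 40 (0.419% of all genes) were at 1 or more, the level taken as detected, in each of the 3 cells. Against this background, 6 of the 19 measured osteoblast genes other than Ifitm5 lay above every other cell, among them Ibsp, Col1a1, Pth1r, Col13a1 and Bglap3. None lay below. The median difference of the 19 genes was 3.83, against -0.23 over all genes, and 17 of the 19 differed by 2 or more upward, a size reached by 6.93% of all genes. The list was put together from known osteoblast genes with earlier results of these cells in view, so its direction is not independent evidence.

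The summed level of the 19 osteoblast genes was higher in the 3 cells than in any other. It was 108.6 in cell 6, 142.2 in cell 10 and 140.8 in cell 13, and in the others it ran from 42.5 to 88.1 with a median of 52.4. Between 15 and 18 of the 19 genes were detected in each of the 3 cells and between 8 and 13 in each other cell. Of all 9542 genes, 5058 to 5062 were at that level in each of the 14 cells, nearly the same number since the cells share 1 distribution. Cell 1 came closest, with a list mean of 4.64 beside 5.72 in cell 6, although its Ifitm5 was 1.95. The cell next in order by osteoblast genes was not the cell next in order by Ifitm5, cell 2, whose list mean was 2.64.

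Markers of blood cells were not equal in the 3 cells. Cell 6 had a neutrophil list mean of 8.26 over 13 measured genes, the highest of all 14 cells, against 3.72 in cell 10 and 4.46 in cell 13. The summed neutrophil level ran from 48.3 to 107.4 in the 3 cells and from 32.7 to 103.0 in the 11 others. Of the 13 genes, 9 to 11 and 7 to 10 were detected, beside 5058 to 5062 of all 9542 genes in each cell. Mpo and Elane, which encode enzymes of neutrophil granules, reached 11.25 and 8.13 in cell 6. In cell 10 Mpo was at 1.53 and Elane at 0, and in cell 13 both were at 0. Ptprc, the leukocyte antigen CD45, was below detection in all 3 cells, at 0.50, 0.40 and 0.04. Of the 12 measured pan-haematopoietic genes, 10, 6 and 9 were detected in cells 6, 10 and 13, against 6 to 12 in the others. The macrophage list summed to 22.5 in cell 6 and to 9.92 and 9.26 in cells 10 and 13, and the pan-haematopoietic list to 59.4, 21.9 and 38.2. The part of this blood cell RNA in the results for cell 6 was not tested, and counts without cell 6 are given with the comparison of pairs of cells. Among the 11 other cells, cells 8, 11 and 14 were the richest in blood cell genes, with pan-haematopoietic sums up to 112.7. Without these 3 cells, the osteoblast list had a median difference of 3.96, and without cell 6 as well it was 4.65.

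**Figure D2:**
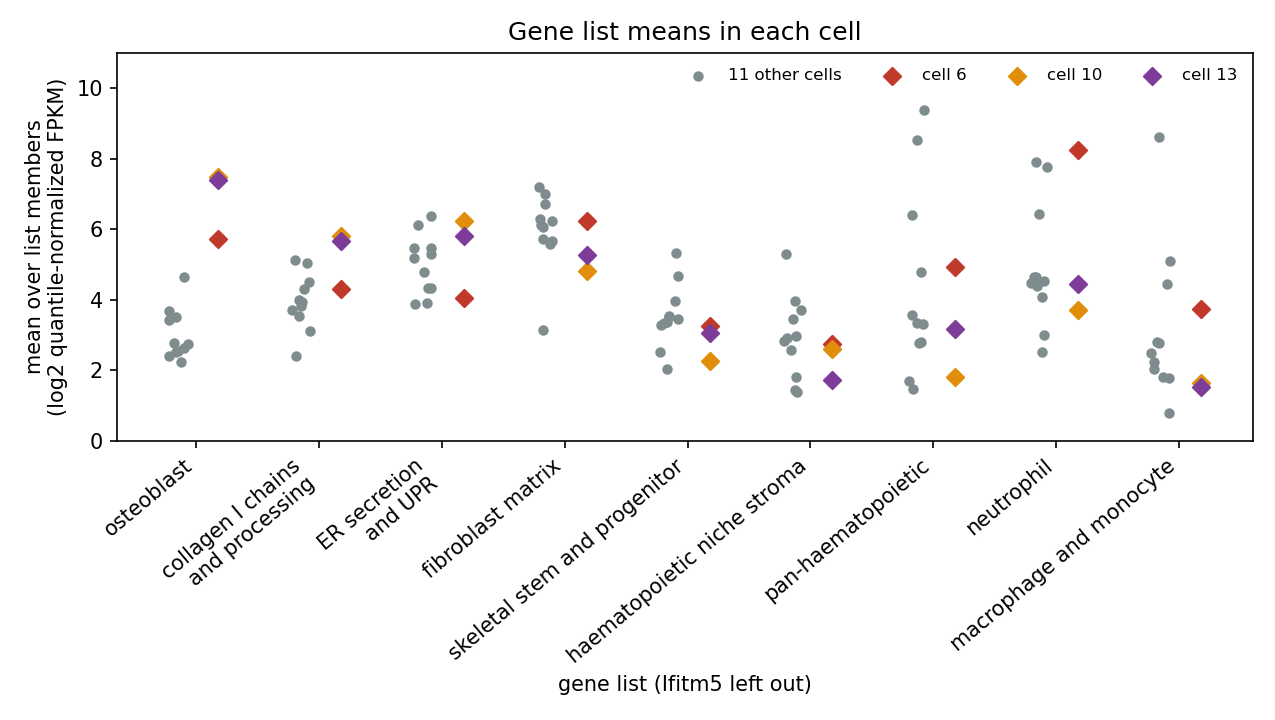
Mean log2 quantile-normalized FPKM over the members of 9 gene lists (x axis, Ifitm5 left out) in each cell, with diamonds for cells 6, 10 and 13 and grey points for the 11 others. The osteoblast means of the 3 cells lie above all others, whereas cell 6 has the highest neutrophil mean and a lower mean of secretory genes than cells 10 and 13.

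Genes of the mineralized matrix had a median difference of 1.58 over 16 measured members, against -0.23 over all genes. Their list mean was 4.77, 5.53 and 5.43 in cells 6, 10 and 13 against 2.32 to 5.25 (median 3.36) in the others, so that cells 10 and 13 lay above every other cell and cell 6 did not. The median difference was 2.54 without cell 6 and 0.96 without cell 13. Of the 16 members, 2 (Ibsp and Bglap3) lay above every other cell (0.461% of all genes). A difference of 2 or more was held by 8 (6.93% of all genes), and 1, Mgp, had a difference of -2 or less (3.82%). Bglap3, an osteocalcin-related gene, was at 12.56, 11.70 and 13.22 in cells 6, 10 and 13, and at 2.83 to 9.04 (median 6.70) in the others. The 3 cells were close to one another and well apart from the rest. Its sequence is nearly identical to its neighbours Bglap and Bglap2, which have no row here, so reads of the 3 genes may have been pooled or split by the counting. Genes that make or release phosphate differed between the 3 cells. Alpl, the tissue alkaline phosphatase, was at 7.81 in cell 10 and 4.67 in cell 13 but at 0.61 in cell 6, and reached 5.00 in cell 7. Smpd3, a sphingomyelinase needed for bone mineralization, was at 8.30, 5.77 and 3.38 in cells 6, 10 and 13 against a median of 0.39 and a highest value of 5.89 in the others. Phex, an endopeptidase of phosphate control, was at 3.38, 3.02 and 5.64 against a median of 0.35, with 1 other cell, cell 9, at 5.73.

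Mgp, which keeps soft tissue from calcifying, went the other way, at 5.91 to 9.05 in the 3 cells against 5.96 to 14.58 (median 10.86) in the others. Sparc (osteonectin) was high in both groups: 11.05, 14.58 and 13.82 against 7.68 to 14.58. Of the 10 measured osteocyte genes, 0 lay above every other cell, an order held by 0.461% of all genes. Dmp1, a matrix protein gene of embedded osteocytes, was at 0 in cells 6 and 10 and at 5.25 in cell 13. It was at 6.42 in cell 11, one of the other cells.

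The main transcription factors of the lineage overlapped between the groups. Of 17 measured osteoblast factors, 4 differed by 2 or more upward (6.93% of all genes) and 0 downward (3.82%), and the median difference was 0.51. Runx2, the master factor of the lineage, was at 6.46, 0.48 and 4.12 in cells 6, 10 and 13, and cell 1 held it at 5.20. Sp7, which acts after Runx2, was at 0.52, 3.62 and 4.01 in cells 6, 10 and 13, with 3.21 in cell 9. Each of these factors was thus below the detection level in 1 of the 3 cells, Runx2 in cell 10 and Sp7 in cell 6. Mef2c was at 8.67 and 8.36 in cells 10 and 13 and at 3.27 in cell 6, and Dlx5 was at 6.72 in cell 10 alone of the 3. Atf4, which serves amino acid supply in osteoblasts, was at 7.71, 7.90 and 8.22, inside the range of 6.26 to 8.62 of the others.

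Of the receptors for bone-building signals, Pth1r stood apart. It encodes the receptor of parathyroid hormone and was at 8.90, 5.85 and 6.87 in cells 6, 10 and 13, against 0.16 to 4.36 (median 0.45) in the others, where cell 1 was highest. The difference was 6.05. Of the 24 measured receptors and transducers 1 lay above every other cell (0.461% of all genes) and 0 lay below (0.147%). A difference of 2 or more upward was held by 3 (6.93% of all genes), and the median difference was -0.47. Fgfr1 was at 8.88, 4.10 and 7.20 in cells 6, 10 and 13 with up to 6.91 outside them, and Notch2 reached 7.60 in cell 6 but 0.15 and 2.70 in cells 10 and 13. Pdgfrb, a receptor of mesenchymal and perivascular cells, was at 0.14, 0.19 and 0.08 in the 3 cells, but its median in the others was also below detection, at 0.38.

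Type I collagen was higher in all 3 cells, and the genes that fold and export it varied between them. Col1a1, the major chain, was at 11.58, 10.96 and 12.96 in cells 6, 10 and 13, against 3.68 to 9.45 (median 6.45) in the others. Fkbp10, a prolyl isomerase of the endoplasmic reticulum that helps collagen fold, was at 6.59, 7.77 and 7.09 against 0.33 to 6.46 (median 1.75). Both genes had all 3 cells above the others, Fkbp10 by a narrow margin over cell 5. They were the 2 of 29 measured members with that order, which 0.461% of all genes had. The prolyl 3-hydroxylation genes P3h1 and Crtap were at 6.82 and 7.81 in cell 10 and 6.59 and 9.49 in cell 13, but at 0.54 and 4.94 in cell 6. Their partner Ppib, a cyclophilin, was at 0.99 in cell 6 and at 7.31 and 6.40 in cells 10 and 13.

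Export and trimming genes followed. Kdelr3, a receptor that returns escaped proteins to the endoplasmic reticulum, was at 9.95, 8.65 and 7.71 in cells 6, 10 and 13 against 1.44 to 8.57 (median 2.64). Bmp1, the protease that cuts the C-terminal propeptide off procollagen, was at 7.55, 5.45 and 6.09 against 0.48 to 6.41 (median 1.26). Each overlapped the others by 2 cells or fewer. Sec24d, a coat protein of the vesicles that carry procollagen, was at 8.96 and 9.14 in cells 6 and 13 but at 3.83 in cell 10. Loxl1, an elastin-type cross-linking enzyme, was the member with a difference of -2 or less: it was at 1.66, 0 and 0.54 in the 3 cells against a median of 2.52. Over the 29 members, 9 differed by 2 or more upward and 1 downward, against 6.93% and 3.82% of all genes. The median difference was 0.99, with 2.21 without cell 6 and 0.58 without cell 10. The list mean was 4.30, 5.81 and 5.67 in cells 6, 10 and 13 against 2.41 to 5.13 in the others.

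**Figure D3:**
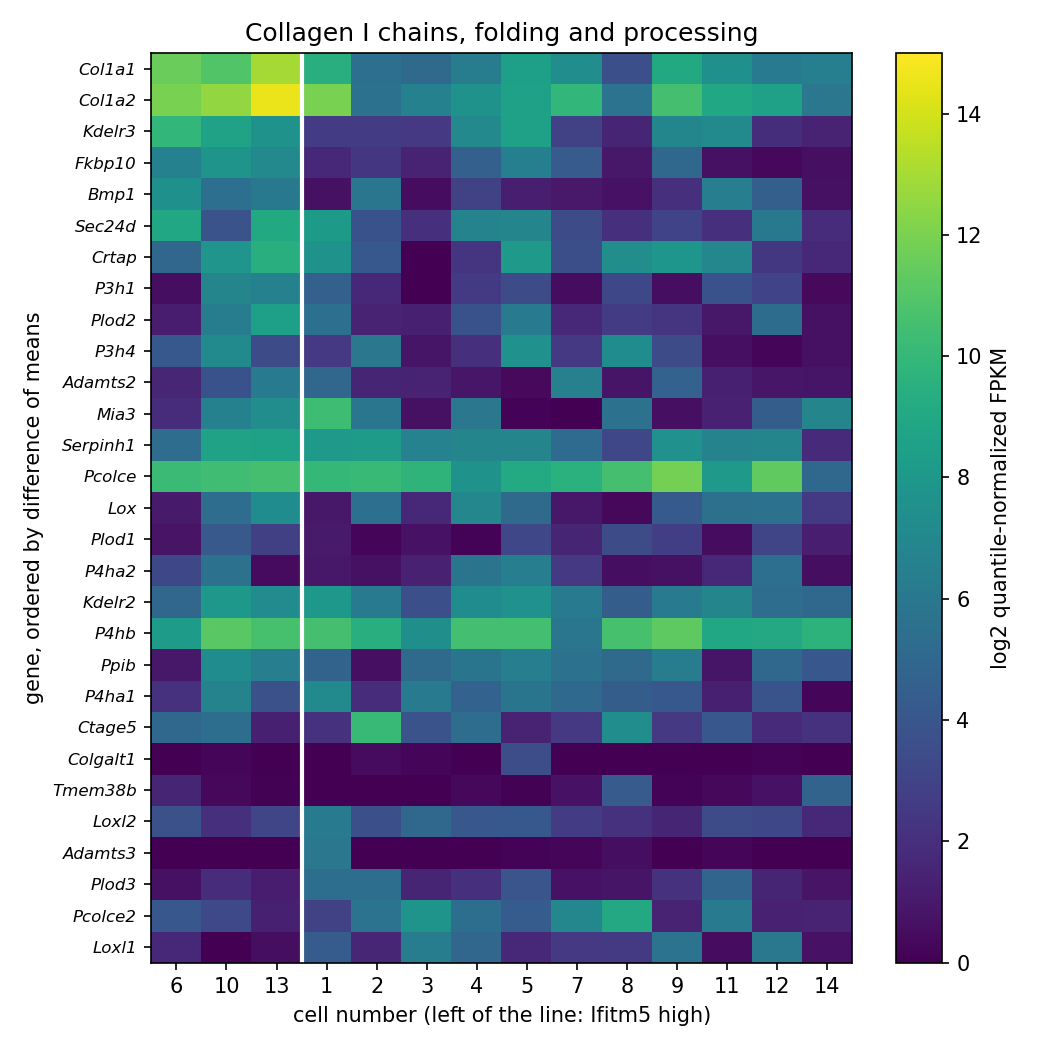
Heat map of log2 quantile-normalized FPKM for the 29 measured genes of collagen I chains, folding and processing (rows, ordered by the difference of means) in cells 6, 10 and 13 (left of the white line) and the 11 other cells. Col1a1 and Fkbp10 are higher in the 3 cells than anywhere else, and P3h1, Plod2 and Ppib are dark in cell 6 but not in cells 10 and 13.

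Genes in which changes are known to cause osteogenesis imperfecta in people overlap this machinery, and they were counted as a separate list. Without Ifitm5, 2 of 18 measured members lay above every other cell (0.461% of all genes) and 0 lay below (0.147%). The 2 were Col1a1 and Fkbp10, the same genes as in the collagen list, so this is not a further result. The median difference was 1.99. Serpinf1, which encodes the secreted protein PEDF, was at 10.96, 10.70 and 12.01 in cells 6, 10 and 13 against 4.29 to 12.06 (median 9.32). Tmem38b, an ion channel gene of the endoplasmic reticulum, was detected in cell 6 alone of the 3. Fkbp11, whose product is known to bind the Ifitm5 protein, was at 5.09, 9.85 and 9.12 against 1.23 to 8.25 (median 2.69).

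Other members of the Ifitm family did not follow Ifitm5. Ifitm5 lies on chromosome 7 from 140948958 to 140950291 (minus strand, GRCm38), beside Ifitm2 at 140954837 to 140955987 and Ifitm1 at 140967221 to 140969825, with Ifitm3 farther along at 141009586 to 141010770. Ifitm3 was at 8.49, 8.43 and 9.09 in cells 6, 10 and 13 against 8.70 to 12.77 (median 10.94) in the others, a difference of -2.30. Ifitm2 was at 7.53, 7.12 and 8.90 against 7.95 to 10.51, and Ifitm1 at 4.51, 1.96 and 7.24 against 3.39 to 11.97. The means of these 3 neighbours were thus lower in the cells with high Ifitm5, with overlap in each case. The tetraspanin gene Cd9, whose product forms complexes with Ifitm5 at the membrane, was at 8.21, 8.76 and 8.39 against 9.75 to 12.01 (median 10.46), with no overlap.

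Collagens outside type I were among the widest differences. Col11a1, a chain of the thin fibrils known best from cartilage, was at 9.09, 7.97 and 9.43 in cells 6, 10 and 13 against 0.64 to 6.34 (median 2.08). Col11a2, its partner chain, was at 9.96, 5.14 and 7.76 against 0.17 to 3.75 (median 1.28). These 2 were the members of 8 measured chondrocyte genes that lay above every other cell, as 0.461% of all genes did. Sox9, the factor that defines the cartilage lineage, was at 0.94, 0.50 and 4.47 in the 3 cells, with up to 5.66 in the others. Col2a1 was at 0.15 in cell 6 but at 6.00 and 9.53 in cells 10 and 13, both above all 11 other cells. The chondrocyte list mean was 3.47, 2.75 and 4.63 in cells 6, 10 and 13, against 0.32 to 4.63 (median 1.71) in the others. Col13a1, a membrane-bound collagen, was at 7.12, 3.34 and 6.09, and no other cell exceeded 0.27. Col5a1, a minor fibrillar chain that mixes with type I collagen, was at 7.96, 5.90 and 7.12 against 0.96 to 6.97 in the others.

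The fixed lists together held 310 of the 9541 genes other than Ifitm5. Of the 44 genes above every other cell, 10 were in a list and 34 were in none. The one with the widest gap was Cadm1, a cell adhesion molecule, at 5.61, 7.52 and 5.87 in cells 6, 10 and 13 against 0 to 1.01 in the others. Cgref1, a secreted calcium-binding protein gene, was at 9.12, 9.06 and 9.06 against 2.76 to 5.71 (median 4.44). Its 3 values were nearly equal. Slc13a5, a citrate transporter of the cell membrane, was at 7.03, 3.28 and 5.94 against 0 to 0.94. Keap1, the sensor that holds the antioxidant factor Nrf2 in check, was at 4.87, 4.26 and 3.09 against 0 to 0.51.

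The other named genes with the widest gaps were Gprc5c, Mlip, Prcp and Gin1. Mlip, a gene named for binding lamin, was at 4.62, 8.18 and 6.72 against 0.06 to 2.79, and the orphan receptor gene Gprc5c was at 2.98, 4.95 and 4.79 against 0 to 0.75. Prcp, a carboxypeptidase, was at 10.32, 6.42 and 6.64 against 1.09 to 4.84. Gin1, a gene of unclear role, was at 4.14, 6.64 and 4.79 against 0.07 to 2.58. In 8 of the 9541 genes, all of them among the 44, all 3 cells were at 1 or more while no other cell was. The heat shock gene Hspa1a, from the stress list, was at 8.62, 6.16 and 6.44 against 0.90 to 5.02, and it has a near-identical neighbour, Hspa1b, with which it may share reads.

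**Figure D4:**
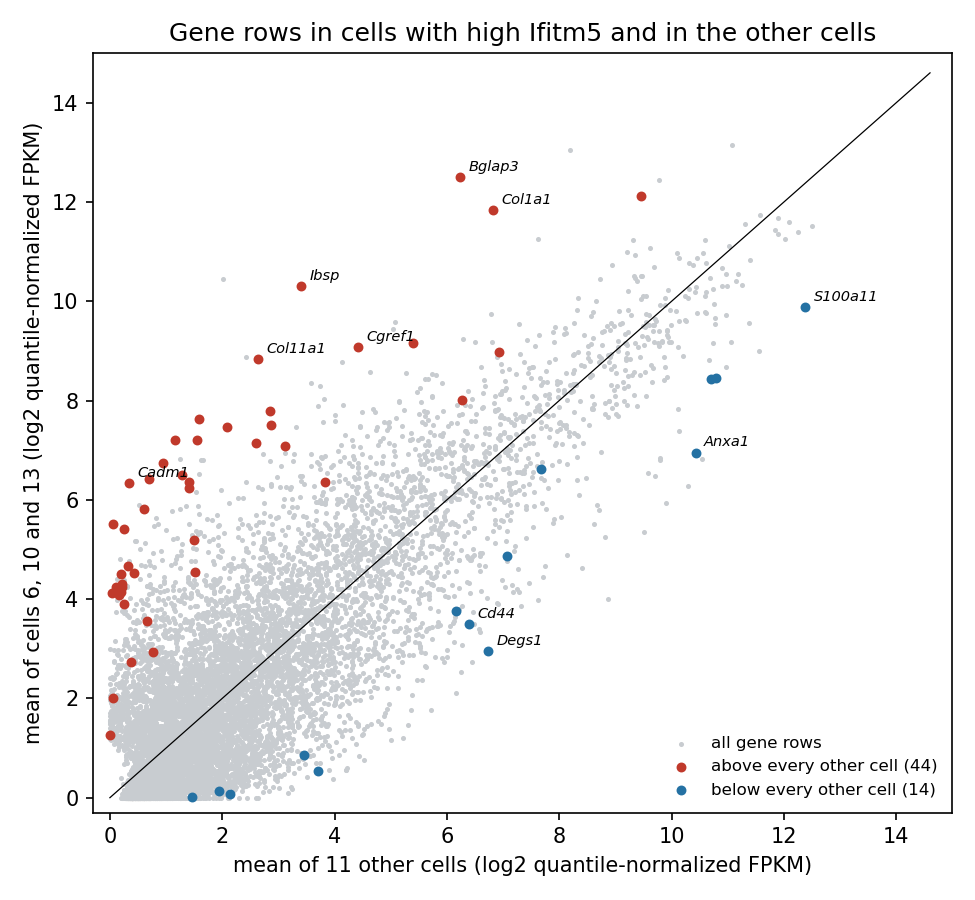
Mean log2 quantile-normalized FPKM of each gene in the 11 other cells (x axis) and in cells 6, 10 and 13 (y axis), with the line of equal means. Red points are the 44 genes whose lowest value in the 3 cells was above every other cell, blue points the 14 with the reverse order, and grey points all other genes, the point of Ifitm5 among them.

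Genes below every other cell were fewer, and among them were surface and calcium-binding protein genes. Anxa1, a phospholipid-binding annexin, was at 7.77, 7.71 and 5.36 in cells 6, 10 and 13, against 9.06 to 11.60 (median 10.60). S100a11, a calcium-binding protein gene, was at 9.41, 10.45 and 9.79 against 10.84 to 14.58. Cd44, the hyaluronan receptor, was at 3.28, 2.53 and 4.69 against 4.93 to 7.58 (median 6.17). Degs1, an enzyme of ceramide synthesis, was at 3.91, 3.36 and 1.59 against 4.86 to 8.80, and the large scaffold gene Ahnak at 4.68, 4.65 and 5.28 against 5.76 to 8.35. In all of these the groups did not overlap. Gpx1, Tmem50a, Dnaja2 and Fam177a had the same order, as did Ccl19, Evi2a and Baz1a, which were at 0.37 or less in all 3 cells.

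Progenitor genes did not stand apart as a list, whose sums of 45.6 to 65.3 in the 3 cells lay inside the range of 40.8 to 106.8 of the others. Of 20 measured members of the skeletal stem and progenitor list, 1 (Cd44) lay below every other cell (0.147% of all genes) and 0 lay above (0.461%). Of the 20, 3 differed by 2 or more downward (a size reached by 3.82% of all genes) and 0 upward (6.93%). Ly6a, the stem cell antigen Sca-1, was at 8.29, 4.94 and 7.25 in cells 6, 10 and 13 against 6.40 to 13.22 (median 11.21), a difference of -3.71. Prrx1, the gene whose promoter drives the Cre, was detected in all 3 cells, at 3.04, 3.28 and 4.62, inside the range of 0.52 to 7.31 of the others. For the niche factors Lepr and Cxcl12, the differences were 0.45 and -0.71, each far smaller than the spread of the other cells (SD 3.55 and 3.00). Ebf1, a factor of marrow stroma, was at 3.03, 1.53 and 3.96 against a median of 5.93.

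**Figure D5:**
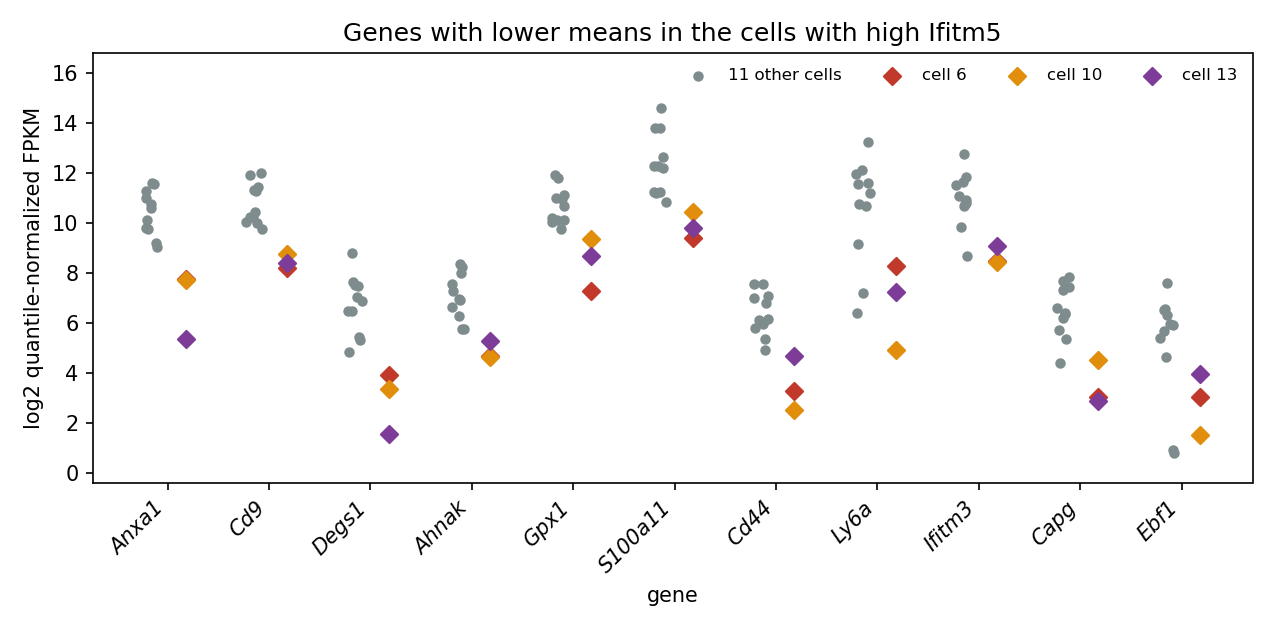
Log2 quantile-normalized FPKM of 11 genes with lower means in cells 6, 10 and 13 (diamonds) than in the 11 other cells (grey points). From Anxa1 to Cd44 the groups do not overlap, and from Ly6a to Ebf1 they do.

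The fibroblast matrix list divided. Of its 30 members, all measured, 0 lay above or below every other cell (0.461% and 0.147% of all genes). Differences of 2 or more were downward in 9 (3.82% of all genes) and upward in 4 (6.93%). The median difference was -0.90, with -1.77 without cell 6 and -0.55 without cell 13. Among the 4, Fap, a surface protease of activated fibroblasts, was at 8.23, 9.35 and 9.04 in cells 6, 10 and 13 against 0.33 to 10.34 (median 0.92), with cell 12 the only other cell above them. The others were Col5a1, Col5a2 and Postn. Among the 9, the collagen gene Col3a1 was at 6.88, 2.96 and 4.15 against a median of 7.40, and the microfibril genes Fbn1 and Mfap5 had differences of -2.76 and -3.10. Dcn, a proteoglycan of nearly all these cells, was at 10.03, 12.22 and 12.28, inside the range of 7.04 to 14.58 of the others.

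Genes that signal from osteoblasts to osteoclasts were mixed. Of 10 measured members, 0 lay above or below every other cell, against 0.461% and 0.147% of all genes. Cthrc1, a secreted collagen repeat protein, was at 4.52, 9.97 and 9.26 in cells 6, 10 and 13, and the monocyte attractant Ccl2 was at 6.47, 2.65 and 2.83 against a median of 8.47. Tnfrsf11b, the decoy receptor osteoprotegerin, was below detection in all 3 cells.

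The 3 cells differed among themselves. Cells 10 and 13 shared 194 genes (2.03%) above all 11 other cells when cell 6 was left out, cells 6 and 13 shared 114 (1.19%) without cell 10, and cells 6 and 10 shared 135 (1.41%) without cell 13. Each count includes the 44 by construction. Below all others lay 76 (0.797%) without cell 6, 44 (0.461%) without cell 10 and 70 (0.734%) without cell 13. The 150 further genes of cells 10 and 13 included Col1a2, Sp7, Mef2c, Kcnk2 and Cpz of the osteoblast list, which brought that list to 11 of 19. They also included the collagen-folding genes Serpinh1, P3h1 and Plod2, and Sec23a, Sec13, Ssr1, Ssr4 and Fkbp11 of the 40 measured secretory genes. Col2a1 of the chondrocyte list was among them too. Cells 6 and 13 added Sec24d, Fgfr1 and Col5a1 from the bone and matrix lists, and cells 6 and 10 added Kdelr3 and Jun.

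Secretory load followed the same division. The list mean of endoplasmic reticulum and secretion genes was 4.05, 6.24 and 5.81 in cells 6, 10 and 13, against 3.90 to 6.37 in the other cells, so that the 3 cells spanned nearly the whole range. Serpinh1, the collagen chaperone HSP47, was at 5.38 in cell 6 and at 8.67 and 8.61 in cells 10 and 13. Cell 6 instead held Pdpn, a membrane glycoprotein of early osteocytes and other cell types, at 9.79, against 1.34 and 0.17 in cells 10 and 13. Across all 9542 genes, the Spearman correlation was 0.540 between cells 6 and 10, 0.490 between cells 10 and 13 and 0.442 between cells 6 and 13, beside a median of 0.483 over the 91 pairs of cells, so by the whole table the 3 cells were not closer to one another than cells usually were. The number of genes above 0 was 7470, 7294 and 8017 in cells 6, 10 and 13 and 7435 to 7933 in the others.

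Genes whose levels followed Ifitm5 most closely over all 14 cells were ranked by Spearman correlation, which rests on the same cells and largely on the order of the 11 cells with low Ifitm5. After Slc13a5 (0.89) came Ibsp (0.88), Car3 (0.87), Bglap3 (0.87), Keap1 (0.87), Lipc (0.86), Zyg11b (0.85), Mlip (0.85), Csgalnact2 (0.84) and Rad1 (0.83). Car3, a carbonic anhydrase, was at 2.35, 9.36 and 8.67 in cells 6, 10 and 13 against 0.33 to 4.62. Lipc, the hepatic lipase gene, was at 0.40, 3.88 and 6.97 against 0 to 0.44. Zyg11b, by contrast, was at 3.06, 3.41 and 3.35 with other cells up to 5.12, so a high rank correlation did not require a high level in the 3 cells.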

How the data were processed

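Transcript levels of 14 single cells were deposited in 1 table. The submitters' processing notes list TopHat2, Cufflinks and the build GRCm38, with no tool version. The deposited values are on a log2 scale and were read as log2(FPKM + 1) after quantile normalization, since the columns share 1 distribution (highest value 14.58 in each); neither step is given in the sources used here, and the depth is unknown. FPKM divides by length although a 3' kit was used, so levels are compared between cells and not between genes. The 14 columns were matched to samples by title, with 0 left over. Of 9558 rows, 9542 symbols were used (the first row of a repeated symbol). Ifitm5 was left out of the lists and of the counts by difference of means or by overlap of ranges. The promoter counts, the correlations between cells and the counts of all genes per cell included it.

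With pandas 2.3.3, each gene's values in the chosen cells were set against the others by the difference of means and by overlap of ranges. The comparison was tested on simulated data in which genes were raised by a known step, which checks its arithmetic and not the results. The members, the 27 gene lists and the alternatives were chosen with earlier results of these data known. The text names genes from the lists, up to 15 with the widest gap in each direction and the 10 most like Ifitm5 by Spearman correlation; ribosomal, mitochondrial, predicted and small RNA genes were not named. RefSeq promoters and GENCODE M21 coordinates are on GRCm38. Proteins were not analysed here, and some genes are not reported here.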

Additional observations from a re-analysis of the deposited data

How the results depend on the processing

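The labels hold 1 group, so no paired analysis was possible because no second group carries the same replicate numbers, and no test was run. The count of genes above every other cell (44) and below (14) depends on how many cells are compared. Without 1 of the cells 6, 10 and 13 the counts were 114 to 194 and 44 to 76, which must be larger since fewer cells have to agree. Without cells 8, 11 and 14 they were 64 and 41, and without cell 6 as well, an alternative chosen after the data were seen, 266 and 154. Adding cell 2 to the 3 cells left 13 and 5, of which 7 (Cadm1, Cgref1, Slc13a5, Gin1, Hspa1a and Gnl3l among them) and 0 were among the 44 and 14. A pseudocount of 10 keeps the order of the cells within each gene, so the 44 and 14 could not change. Limiting the genes can only remove some of them. With genes detected in at least 3 cells 40 and 14 remained, and with protein-coding genes alone 44 and 14. The median difference of the osteoblast list was 3.83 and ranged from 2.31 (pseudocount 10) to 4.67 (without cell 6), with 2.72 when cell 2 was added. For the fibroblast matrix list it was -0.90, with -1.77 without cell 6, -0.55 to -1.77 over the cells left out, -0.32 when cell 2 was added, and -2.05 without cells 6, 8, 11 and 14. The collagen list, at 0.99, ranged from 0.58 (without cell 10) to 2.21 (without cell 6), and the mineral matrix list, at 1.58, from 0.80 (pseudocount 10) to 2.54 (without cell 6), both above 0 in all 10 alternatives. The neutrophil list, at -0.03, had both signs, from -0.74 without cell 6 to 1.29 without cell 13. The 3 cells may come from 1 animal or from several, and values near 0 cannot be told from missed transcripts.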
